A study of Mus musculus with 14 samples.

Results

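This account follows 42 genes of the Wnt signalling pathway through mouse kidneys in 3 groups: 10 Wnt ligands, 2 genes of ligand secretion, 8 Frizzled receptors, 4 co-receptor or R-spondin receptor genes, 5 secreted inhibitors, 5 feedback inhibitors, 4 genes of beta-catenin and its destruction complex, and 4 TCF/LEF transcription factors. The genes were picked by symbol, with earlier results of these data known. All 42 were among the 23682 genes listed in both deposited tables, and all 42 were among the 18810 genes that passed the filter on low values. The series is bulk RNA-seq of whole kidney. The first group was 5 kidney libraries of i-TERTci mice given GSK2830371, an inhibitor of the phosphatase WIP1, after 31, 49, 49, 49 and 28 days on doxycycline. The second was 5 libraries of i-TERTci mice given DMSO, the vehicle, after 29, 29, 29, 38 and 31 days. The third was 4 libraries of control mice after 30 days. i-TERTci mice are adults heterozygous for both the actin-rtTA and TetOp-TERTci transgenes, so that doxycycline in the drinking water switches on TERTci throughout the body. The control mice carried actin-rtTA alone and drank the same doxycycline. Daily intraperitoneal injections of GSK2830371 or DMSO began once the i-TERTci mice had high protein in the urine. The labels mention no injection of the control mice, so the transgene and the injected vehicle cannot be told apart in the comparisons with control. The labels call the libraries replicates and do not state that each came from a different mouse, so p-values measure the spread between these samples.

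Wnt proteins are secreted lipid-modified ligands. In the canonical branch a Wnt binds a Frizzled receptor together with LRP5 or LRP6. The destruction complex of AXIN, APC and GSK3 then stops marking beta-catenin for degradation, and beta-catenin enters the nucleus to act with TCF/LEF factors on target genes such as Axin2. R-spondins acting through LGR receptors hold RNF43 and ZNRF3 off the Frizzled receptors, while SFRP and DKK proteins act outside the cell to limit the signal. In the developing mouse kidney Wnt9b and Wnt11 come from the ureteric bud, Wnt4 drives the mesenchyme into nephron epithelium, and Wnt7b from the collecting duct shapes the medulla. In the adult, several of these ligands and their targets are used again in tubular injury and fibrosis.

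The libraries held 48.4 to 49.4 M reads in the GSK2830371 group, 47.2 to 48.8 M in the DMSO group and 48.5 to 64.6 M in the control group. Mitochondrial genes took 5.07 to 8.35% of reads in GSK2830371 libraries, 4.95 to 9.52% in DMSO libraries and 14.4 to 24.2% in control libraries. Tert, the gene of the transgene's product, was listed at 231 to 2546 normalised reads in GSK2830371 libraries, 574 to 2732 in DMSO libraries and 117 to 183 in control libraries, with no overlap between i-TERTci and control. Xist, the RNA of the inactive X chromosome, was above 1000 normalised reads in 3 of 5 GSK2830371, 2 of 5 DMSO and 4 of 4 control libraries, so that this class is uneven across the groups. Ddx3y, a gene of the Y chromosome, was at 2781 and 4420 in the 2 GSK2830371 libraries below this limit. It was at 3228 to 3802 in the 3 DMSO libraries below it, and at 0 to 11.6 in all other libraries. The Xist class thus follows sex: all 4 control libraries had the female pattern, and the i-TERTci libraries were mixed. The change from control also followed transcript GC content across all genes. With genes put in 5 equal bins by GC content, in the bin of lowest GC the median log2 difference from control was 0.36 in GSK2830371 and 0.41 in DMSO kidneys. In the bin of highest GC it was -0.41 in GSK2830371 and -0.42 in DMSO kidneys. Values below are normalised reads, which are whole reads divided by a size factor for each library; differences are on the log2(normalised reads + 1) scale, tested with limma across all genes and called at a Benjamini-Hochberg adjusted p below 0.05.

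In i-TERTci kidneys the Wnt genes moved in both directions relative to control. Wnt9b, Wnt11, Sfrp1, Rnf43 and 3 TCF/LEF factors were lower in both injected groups, while Ctnnb1, Wls, Fzd6 and Lrp6 were higher in both. In GSK2830371 kidneys 12 of the 42 genes were called higher than control and 17 lower, where 24.3% of all genes tested were called higher and 22.1% lower. In DMSO kidneys 8 of 42 were called higher than control and 20 lower, where 25.2% of all genes tested were called higher and 23.1% lower. The median log2 difference of the 42 genes was -0.43 in GSK2830371 kidneys, beside 0.011 for all genes tested. In DMSO kidneys it was -0.60, beside 0.026 for all genes tested. Both comparisons use the same 4 control libraries. Where values are said below not to overlap between groups, this describes the gene named. The share of all genes tested without overlap was not counted, so a lack of overlap is not shown to be particular to the Wnt genes. Between GSK2830371 and DMSO kidneys 0 of the 42 genes were called by limma, edgeR or DESeq2, with 4 of 42 at an unadjusted limma p below 0.05, and limma called 0% of all genes tested. The count of 8 higher genes in DMSO kidneys was sensitive to single libraries: it was 4 without control replicate 1 or DMSO replicate 1, and 5 without control replicates 2 or 3 or DMSO replicates 2 or 3. The 13 genes called in DMSO kidneys under every alternative tried were all lower: Wnt4, Wnt5a, Wnt9b, Wnt11, Porcn, Lrp5, Lgr5, Sfrp1, Sfrp2, Rnf43, Lef1, Tcf7l1 and Tcf7l2. In GSK2830371 kidneys 14 genes were called under every alternative tried, of which Wnt5a, Wnt9b, Wnt11, Fzd1, Lgr5, Sfrp1, Lef1, Tcf7l1 and Tcf7l2 were lower and Wnt2b, Wnt9a, Wls, Lgr4 and Dkk3 were higher.

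**Figure D1:**
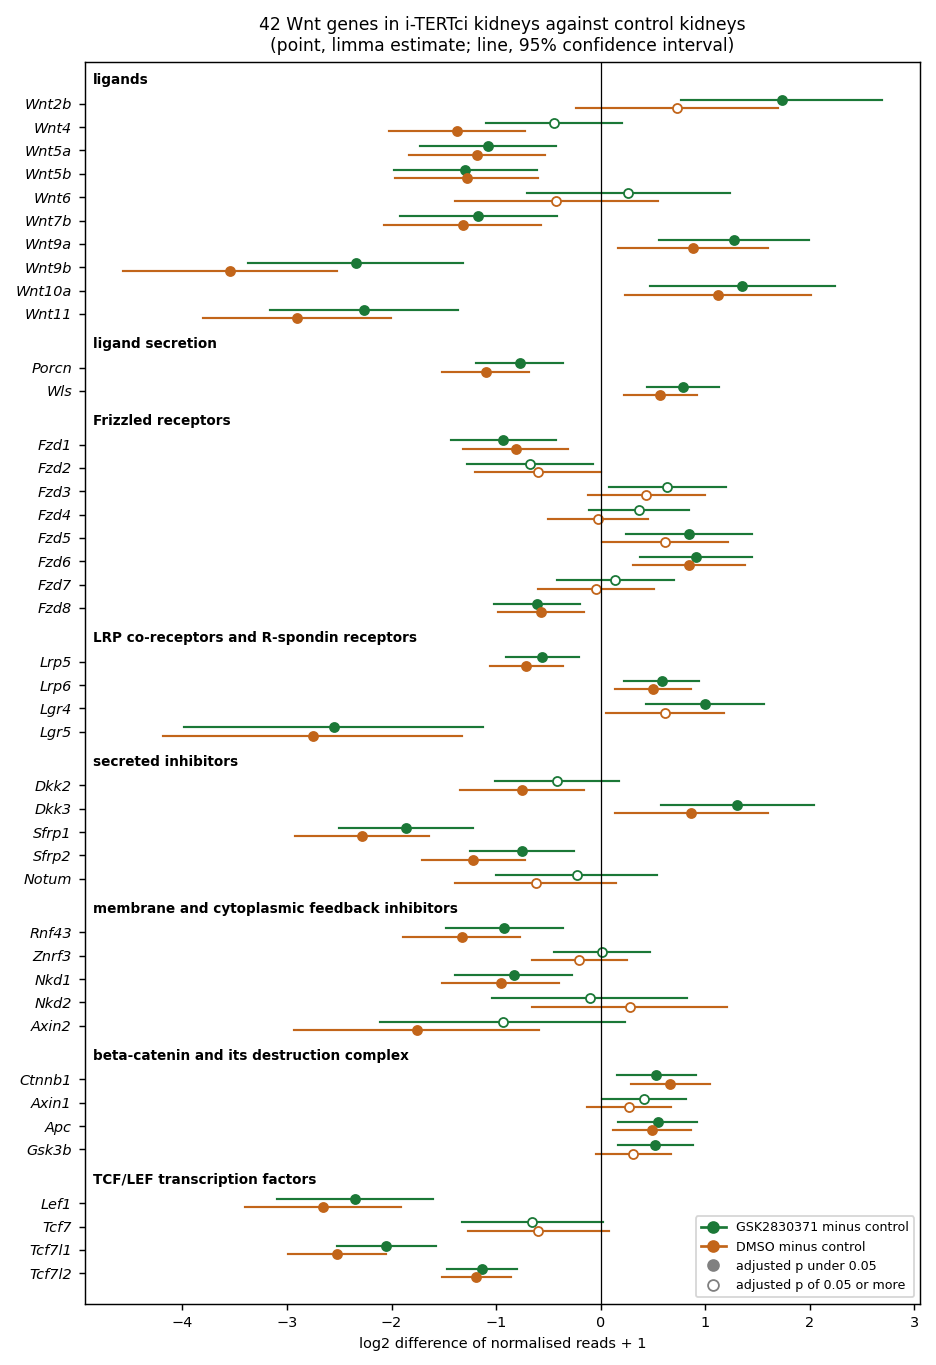
Log2 difference from control of each of the 42 Wnt genes, by pathway layer, with GSK2830371 kidneys (green, n = 5) above DMSO kidneys (orange, n = 5) and the control group (n = 4) at 0; lines are 95% confidence intervals and filled points have an adjusted p below 0.05. Wnt9b, Wnt11, Lgr5, Lef1, Tcf7l1 and Sfrp1 lie farthest to the left in DMSO kidneys, from -3.55 to -2.29, and Wnt2b lies farthest to the right in GSK2830371 kidneys at 1.73.

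Among the ligands, 3 of 10 were called higher and 5 lower in GSK2830371 kidneys, and 2 higher and 6 lower in DMSO kidneys. Over all genes tested 24.3% were called higher and 22.1% lower in GSK2830371 kidneys, and 25.2% and 23.1% in DMSO kidneys. The counts of the other layers, each of few genes, stand beside the same shares. Wnt9b (ENSMUSG00000018486, chr11:103727364-103749821, minus strand) signals from the ureteric bud and its derivative, the collecting duct. Wnt9b had 65.4, 156, 183, 143 and 144 normalised reads in the GSK2830371 libraries, 21.8, 81.6, 140.0, 23.3 and 95.2 in the DMSO libraries, and 732, 576, 705 and 669.8 in the control libraries. Every i-TERTci library lay below every control library, and DMSO replicates 1 and 4 were the lowest. The log2 difference from control was -2.34 ± 0.48 in GSK2830371 kidneys (SE, adjusted p = 0.00119) and -3.55 ± 0.48 in DMSO kidneys (adjusted p = 4.25e-05). Wnt11 (ENSMUSG00000015957, chr7:98835112-98855195, plus strand) is a ligand of the ureteric bud tip. Wnt11 had 48.5, 58.1, 34.5, 20.8 and 19.2 normalised reads in the GSK2830371 libraries, 13.3, 23.8, 32.4, 12.7 and 29.0 in the DMSO libraries, and 247, 231, 98.3 and 124 in the control libraries. The i-TERTci and control values did not overlap, although the 4 control values themselves fell into a higher and a lower pair. Its log2 difference from control was -2.26 ± 0.42 in GSK2830371 kidneys (SE, adjusted p = 0.00056) and -2.91 ± 0.42 in DMSO kidneys (adjusted p = 6.92e-05).

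Wnt4 (ENSMUSG00000036856, chr4:137277489-137299726, plus strand) induces nephron epithelium. Wnt4 had 219.8, 306, 269, 559 and 262 normalised reads in the GSK2830371 libraries, 159.6, 244, 179, 88.8 and 165 in the DMSO libraries, and 593, 410.0, 360.0 and 340.2 in the control libraries. All DMSO values were below all control values, while the GSK2830371 values overlapped both groups, with replicate 4 close to the highest control. The log2 difference from control was -0.44 ± 0.31 (SE, adjusted p = 0.249) in GSK2830371 kidneys and -1.38 ± 0.31 (SE, adjusted p = 0.0018) in DMSO kidneys. Between GSK2830371 and DMSO kidneys it was 0.94 ± 0.29 (SE), with an adjusted p of 0.994. At 31 days or fewer (n = 2 GSK2830371, 4 DMSO and 4 control) the difference from control was -0.79 in GSK2830371 kidneys (adjusted p = 0.0502), and that between GSK2830371 and DMSO was 0.38. Wnt7b, which acts from the collecting duct on the medulla, averaged 714 ± 388 in GSK2830371, 638 ± 343 in DMSO and 1452 ± 132 in control libraries (SD, n = 5, 5 and 4). Its log2 difference from control was -1.17 ± 0.35 in GSK2830371 kidneys (SE, adjusted p = 0.0138) and -1.32 ± 0.35 in DMSO kidneys (adjusted p = 0.00657). GSK2830371 replicate 4 was inside the control range and DMSO replicate 4 just under it, while the other i-TERTci libraries were well below. Exons of a gene on the opposite strand cover 6.61% of the Wnt7b exons and 8.80% of the Wnt11 exons.

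The noncanonical ligands Wnt5a and Wnt5b, which act largely without beta-catenin, were also lower. For Wnt5a the log2 difference from control was -1.08 ± 0.31 in GSK2830371 kidneys (SE, adjusted p = 0.00943) and -1.18 ± 0.31 in DMSO kidneys (adjusted p = 0.00507). For Wnt5b it was -1.29 ± 0.32 in GSK2830371 kidneys (SE, adjusted p = 0.00412) and -1.28 ± 0.32 in DMSO kidneys (adjusted p = 0.0041). Wnt2b, Wnt9a and Wnt10a went the other way. Wnt9a was higher than control by 1.28 ± 0.34 in GSK2830371 kidneys (SE, adjusted p = 0.00631) and 0.88 ± 0.34 in DMSO kidneys (adjusted p = 0.0417). For Wnt10a the log2 difference was 1.36 ± 0.42 in GSK2830371 kidneys (SE, adjusted p = 0.0152) and 1.12 ± 0.42 in DMSO kidneys (adjusted p = 0.0375). The DMSO call of Wnt9a was lost without any 1 of 7 libraries (control replicates 1, 2 and 4, DMSO replicates 2, 3 and 4, and GSK2830371 replicate 5), with adjusted p from 0.0515 to 0.1001. The DMSO call of Wnt10a was lost without any 1 of 6 (control replicates 2, 3 and 4 and DMSO replicates 1, 2 and 5), with adjusted p from 0.0554 to 0.107. Its GSK2830371 call was lost without control replicate 4 (log2 1.198, adjusted p = 0.0512). Wnt2b rested on few reads, 20, 21, 24, 31 and 54 in the GSK2830371, 12, 14, 26, 6 and 14 in the DMSO and 5, 11, 3 and 13 in the control libraries. It was called in GSK2830371 kidneys, at 1.73 ± 0.45 (SE, adjusted p = 0.00585), and not in DMSO kidneys, at 0.73 ± 0.45 (SE, adjusted p = 0.196). Wnt6, at 2 to 25 reads in any library, passed in neither comparison.

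Promoter sequence was searched for the TCF/LEF motif, through which beta-catenin reaches DNA. Windows with a motif are printed only for genes called lower, so the choice of windows follows the calls and does not link the motif to them. The 250 bases upstream of each RefSeq start (GRCm38.p6) were searched on both strands for the motif CTTTGAT, the variant CTTTGAA, the variant CTTTGTT and the variant CTTTGTA, which differ in their last bases and so exclude each other at a site. RefSeq windows were at hand for 25 of the 42 genes. A motif was in 5 of their 35 windows (14.3%), beside 14.8% of the 32851 windows of all genes. The 2 ligand windows are printed 5′ to 3′ on the gene's strand, with the motif in capitals. The Wnt11 window is chr7:98834862-98835111, plus strand, and holds CTTTGAT on the opposite strand starting 51 bases before the transcription start. The Wnt5b window is chr6:119449387-119449636, minus strand, and holds CTTTGAT on the gene's own strand 71 bases before its start.
Wnt11: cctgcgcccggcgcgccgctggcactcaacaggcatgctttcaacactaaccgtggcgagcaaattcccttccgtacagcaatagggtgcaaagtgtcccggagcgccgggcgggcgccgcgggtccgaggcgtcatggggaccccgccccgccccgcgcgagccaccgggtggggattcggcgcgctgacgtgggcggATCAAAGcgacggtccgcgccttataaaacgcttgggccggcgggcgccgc
Wnt5b: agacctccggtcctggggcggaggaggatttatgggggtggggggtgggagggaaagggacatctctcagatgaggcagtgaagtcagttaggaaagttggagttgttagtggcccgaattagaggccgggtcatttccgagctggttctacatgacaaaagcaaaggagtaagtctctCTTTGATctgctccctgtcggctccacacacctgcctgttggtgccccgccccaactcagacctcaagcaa
The first 40 bases transcribed from both starts are in a GENCODE transcript, and both genes have other RefSeq starts without the motif. A match describes the letters in the window and nothing about binding.

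The 2 genes of ligand secretion went in opposite directions. Porcn (ENSMUSG00000031169, chrX:8193848-8206525, minus strand) encodes the acyltransferase that attaches the lipid to Wnt proteins. Porcn had 399, 429, 436, 296 and 409.7 normalised reads in the GSK2830371 libraries, 374, 321, 274, 235 and 380.1 in the DMSO libraries, and 788, 681, 519 and 717 in the control libraries. All i-TERTci values were below all control values. The log2 difference from control was -0.78 ± 0.20 in GSK2830371 kidneys (SE, adjusted p = 0.00461) and -1.10 ± 0.20 in DMSO kidneys (adjusted p = 0.000341). Wls, which carries the lipidated ligand to the cell surface, averaged 14295 ± 1958 in GSK2830371, 12289.7 ± 1643 in DMSO and 8291 ± 1319 in control libraries (SD). It was higher by 0.79 ± 0.16 in GSK2830371 kidneys (SE, adjusted p = 0.00118) and 0.57 ± 0.16 in DMSO kidneys (adjusted p = 0.00939).

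The Frizzled receptors gave 2 higher and 2 lower calls among 8 in GSK2830371 kidneys, and 1 higher and 2 lower in DMSO kidneys. These counts were mostly near the shares over all genes tested. Those were 24.3% higher and 22.1% lower in GSK2830371 kidneys, and 25.2% and 23.1% in DMSO kidneys. Fzd6 was higher by 0.91 ± 0.25 in GSK2830371 kidneys (SE, adjusted p = 0.00807) and 0.84 ± 0.25 in DMSO kidneys (adjusted p = 0.0121). Fzd5 was called in GSK2830371 kidneys, at 0.84 ± 0.28 (SE, adjusted p = 0.0235), with 0.62 ± 0.28 (SE, adjusted p = 0.0836) in DMSO kidneys. That call was lost without control replicate 1 or GSK2830371 replicates 1 or 2 (adjusted p 0.0597 to 0.0993), and Fzd5 was called in DMSO kidneys without control replicate 4 (log2 0.78, adjusted p = 0.0489). Exons of a gene on the opposite strand cover 17.8% of the Fzd5 exons, and the strand setting of the counting is not given in the sources used here, so reads of such pairs cannot be told apart. Fzd1 and Fzd8 were lower. Fzd1 averaged 1812 ± 442 in GSK2830371, 1966 ± 465 in DMSO and 3490.0 ± 1003 in control libraries (SD). Its log2 difference from control was -0.93 ± 0.24 in GSK2830371 kidneys (SE, adjusted p = 0.00488) and -0.81 ± 0.24 in DMSO kidneys (adjusted p = 0.0105). For Fzd8 the difference was -0.61 ± 0.19 in GSK2830371 kidneys (SE, adjusted p = 0.0178) and -0.57 ± 0.19 in DMSO kidneys (adjusted p = 0.0236). The Fzd8 call was lost without control replicates 2 or 4 in both comparisons, and in the DMSO comparison also without DMSO replicate 1 (log2 -0.57 to -0.43, adjusted p 0.0530 to 0.0875 over these). Fzd4, the most abundant Frizzled per length in every group, differed from control by 0.37 in GSK2830371 and -0.024 in DMSO kidneys, neither called, although all 5 GSK2830371 values lay above all 4 control values. Fzd2, Fzd3 and Fzd7 were not called in either comparison. Fzd2 passed as lower in GSK2830371 kidneys by DESeq2, with each table alone, with the compared groups alone, at 31 days or fewer (log2 -1.05, adjusted p = 0.0444), and without control replicate 3 or DMSO replicate 1 (log2 -0.82 and -0.68). Fzd3 passed as higher in GSK2830371 kidneys by DESeq2, with Xist class as a covariate (log2 0.86, adjusted p = 0.0104), above the Xist limit (log2 0.88, adjusted p = 0.0127) and without GSK2830371 replicate 1 (log2 0.81). In DMSO kidneys Fzd3 passed with Xist class as a covariate (log2 0.77, adjusted p = 0.0295).

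Among the co-receptors and R-spondin receptors, Lrp5 and Lgr5 were called lower in both comparisons, Lrp6 higher in both, and Lgr4 higher in GSK2830371 kidneys. Lrp5 (ENSMUSG00000024913, chr19:3584828-3686564, minus strand) and Lrp6 encode the 2 co-receptors of the canonical branch. Lrp5 had 3894, 4156, 3525, 3197 and 4473 normalised reads in the GSK2830371 libraries, 2994, 3626, 3823, 3421 and 3367 in the DMSO libraries, and 5134, 7021, 4181 and 6641 in the control libraries. All DMSO values lay below all control values, while the highest GSK2830371 value was above the lowest control value. Lrp5 differed from control by -0.56 ± 0.16 in GSK2830371 kidneys (SE, adjusted p = 0.0117) and -0.71 ± 0.16 in DMSO kidneys (adjusted p = 0.00234). Its GSK2830371 call was lost without control replicate 2 (log2 -0.45, adjusted p = 0.0530). Lrp6 averaged 8522 ± 756 in GSK2830371, 8109 ± 1295 in DMSO and 5769 ± 1136 in control libraries (SD) and was higher by 0.58 ± 0.17 in GSK2830371 kidneys (SE, adjusted p = 0.0108) and 0.50 ± 0.17 in DMSO kidneys (adjusted p = 0.0233). The DMSO call of Lrp6 was lost without control replicate 1 or DMSO replicate 1 (log2 0.35 to 0.43, adjusted p 0.0526 to 0.0928). Above the Xist limit, and likewise after correction for GC content and length, Lrp6 was called in neither comparison.

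Lgr5 and Lgr4 are R-spondin receptors, and Lgr5 is also a beta-catenin target and stem cell marker in the intestine. Lgr5 had 1.13, 1.94, 11.8, 20.8 and 9.18 normalised reads in the GSK2830371 libraries, 4.84, 6.42, 7.42, 1.06 and 10.8 in the DMSO libraries, and 50.6, 22.3, 36.1 and 65.9 in the control libraries. These rest on 1, 2, 12, 24 and 11 reads in GSK2830371, 4, 7, 8, 1 and 13 in DMSO and 46, 24, 36 and 56 in control libraries. In normalised reads every i-TERTci library was below every control library, although GSK2830371 replicate 4 and control replicate 2 held 24 reads each. The Lgr5 (ENSMUSG00000020140, chr10:115450311-115587780, minus strand) log2 difference was -2.55 ± 0.67 in GSK2830371 kidneys (SE, adjusted p = 0.006) and -2.76 ± 0.67 in DMSO kidneys (adjusted p = 0.00344). Lgr4, far more abundant, averaged 11254 ± 3836 in GSK2830371, 8413 ± 2114 in DMSO and 5586 ± 1642 in control libraries (SD). It was called higher in GSK2830371 kidneys, at 0.996 ± 0.26 (SE, adjusted p = 0.00632), and was at 0.61 ± 0.26 (SE, adjusted p = 0.0664) in DMSO kidneys, where it passed without GSK2830371 replicate 1 (adjusted p = 0.0497).

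Of the 5 secreted inhibitors, 1 was higher and 2 lower in GSK2830371 kidneys, and 1 higher and 3 lower in DMSO kidneys. The shares over all genes tested were 24.3% and 22.1% in GSK2830371 kidneys and 25.2% and 23.1% in DMSO kidneys. Sfrp1 (ENSMUSG00000031548, chr8:23411502-23449632, plus strand), a secreted Frizzled-like protein that binds Wnts, had the largest drop in reads of the set. Sfrp1 had 3495, 2596, 4609.9, 5576 and 3564 normalised reads in the GSK2830371 libraries, 3238, 3065, 1955, 1750.3 and 5657 in the DMSO libraries, and 15446, 15432, 10023 and 15926 in the control libraries. All i-TERTci values were below all controls, and control replicate 3 was the lowest control. The log2 difference from control was -1.86 ± 0.30 in GSK2830371 kidneys (SE, adjusted p = 0.000189) and -2.29 ± 0.30 in DMSO kidneys (adjusted p = 3.31e-05). Sfrp2 (ENSMUSG00000027996, chr3:83766321-83774316, plus strand), of the same family, followed with a smaller difference. Sfrp2 had 410.3, 628, 567, 411 and 537 normalised reads in the GSK2830371 libraries, 339, 393, 373, 255 and 504 in the DMSO libraries, and 967, 924, 539 and 1071 in the control libraries. DMSO values did not overlap control values, while GSK2830371 replicates 2 and 3 lay above the lowest control, replicate 3. Sfrp2 differed from control by -0.75 ± 0.23 in GSK2830371 kidneys (SE, adjusted p = 0.0159) and -1.22 ± 0.23 in DMSO kidneys (adjusted p = 0.00061). Its GSK2830371 call was lost without control replicate 4 (log2 -0.64, adjusted p = 0.0596), and an opposite-strand gene covers 16.1% of its exons.

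Dkk3, a divergent member of the Dickkopf family, was higher. It averaged 2859.8 ± 1042 in GSK2830371, 2179 ± 918 in DMSO and 1098 ± 158 in control libraries (SD), which is a log2 difference of 1.30 ± 0.34 in GSK2830371 kidneys (SE, adjusted p = 0.00637) and 0.86 ± 0.34 in DMSO kidneys (adjusted p = 0.0491). The DMSO call of Dkk3 was lost without any 1 of 10 libraries (all 4 controls, DMSO replicates 1, 2, 3 and 5, and GSK2830371 replicates 1 and 5), with adjusted p from 0.0543 to 0.113. Dkk2, which binds LRP5 and LRP6, was at -0.42 ± 0.28 (SE, adjusted p = 0.232) in GSK2830371 kidneys and was called lower in DMSO kidneys, at -0.75 ± 0.28 (SE, adjusted p = 0.036). Among libraries above the Xist limit this turned round: Dkk2 was called lower in GSK2830371 kidneys (log2 -0.58, adjusted p = 0.0200) and was at -0.015 (adjusted p = 0.961) in DMSO kidneys. The DMSO call was lost without any 1 of 6 libraries (control replicates 1, 3 and 4 and DMSO replicates 1, 3 and 4), with adjusted p from 0.0642 to 0.101. Notum, a deacylase that inactivates Wnt proteins, was not called in either comparison, and 29.4% of its exons overlap its own antisense gene Notumos. Without DMSO replicate 3 Notum passed as lower in DMSO kidneys (log2 -0.90, adjusted p = 0.0339).

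Feedback inhibitors, several of which are themselves induced by beta-catenin, were lower or not called: 0 higher and 2 lower of 5 in GSK2830371 kidneys, 0 higher and 3 lower in DMSO kidneys. Shares over all genes tested were 24.3% higher and 22.1% lower in GSK2830371 kidneys, and 25.2% and 23.1% in DMSO kidneys. Rnf43 (ENSMUSG00000034177, chr11:87662722-87735539, plus strand), a ubiquitin ligase that clears Frizzled from the membrane, separated both injected groups from control. Rnf43 had 278, 387, 374, 423 and 355 normalised reads in the GSK2830371 libraries, 154, 352, 376, 188 and 381 in the DMSO libraries, and 594, 742, 637 and 777 in the control libraries. All i-TERTci values were below all control values, with DMSO replicates 1 and 4 lowest. Rnf43 differed from control by -0.92 ± 0.26 in GSK2830371 kidneys (SE, adjusted p = 0.00985) and -1.33 ± 0.26 in DMSO kidneys (adjusted p = 0.000773). Znrf3, its paralogue, differed by 0.011 in GSK2830371 and -0.20 in DMSO kidneys, neither called. Nkd1, a Dishevelled-binding antagonist, was lower, with a log2 difference of -0.83 ± 0.26 in GSK2830371 kidneys (SE, adjusted p = 0.0172) and -0.96 ± 0.26 in DMSO kidneys (adjusted p = 0.00737). The GSK2830371 call of Nkd1 was lost without control replicates 1 or 2 (log2 -0.74 and -0.70, adjusted p 0.0566 to 0.0671). Nkd2 was not called.

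Axin2 (ENSMUSG00000000142, chr11:108920349-108950783, plus strand), a scaffold of the destruction complex and the most widely used readout of beta-catenin activity, was spread widely among i-TERTci kidneys. Axin2 had 92.4, 162, 94.6, 106 and 179 normalised reads in the GSK2830371 libraries, 13.3, 130.2, 129, 42.3 and 152 in the DMSO libraries, and 265, 233, 228 and 214 in the control libraries. Every i-TERTci value was below every control value, and DMSO replicates 1 and 4 were far below the other DMSO libraries. The log2 difference from control was -0.94 ± 0.55 (SE, adjusted p = 0.174) in GSK2830371 kidneys and -1.76 ± 0.55 (SE, adjusted p = 0.0156) in DMSO kidneys. The GSK2830371 difference passed without DMSO replicate 1, which enters the shared estimate of spread (log2 -0.94, adjusted p = 0.0349). It also passed where each deposited table was tested alone (log2 -0.92, adjusted p = 0.00899). In libraries above the Xist limit the GSK2830371 difference also passed (log2 -0.99, adjusted p = 0.0090, n = 3 and 4 control). The DMSO call was lost in those libraries (log2 -0.73, adjusted p = 0.0665, n = 2 DMSO and 4 control) and in libraries of 31 days or fewer (log2 -1.59, adjusted p = 0.0659). With Xist class as a covariate the DMSO call was lost too (log2 -1.29, adjusted p = 0.108). The RefSeq window upstream of Axin2 held none of the 4 motif variants.

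Beta-catenin and the destruction complex were the one layer with no lower call: 3 of 4 genes were called higher in GSK2830371 kidneys and 2 of 4 in DMSO kidneys. Of all genes tested, 24.3% were called higher in GSK2830371 and 25.2% in DMSO kidneys, and 22.1% and 23.1% lower. Ctnnb1 (ENSMUSG00000006932, chr9:120929216-120960507, plus strand) encodes beta-catenin. Ctnnb1 had 19373, 22639, 18469, 21933 and 18872 normalised reads in the GSK2830371 libraries, 26908, 20334, 20693, 23239.6 and 20183 in the DMSO libraries, and 9496, 15325, 16166 and 16149 in the control libraries. All i-TERTci values lay above all control values, and control replicate 1 was the lowest of the 4. Ctnnb1 differed from control by 0.53 ± 0.18 in GSK2830371 kidneys (SE, adjusted p = 0.0234) and 0.66 ± 0.18 in DMSO kidneys (adjusted p = 0.00653). The GSK2830371 call was lost without control replicate 1 or GSK2830371 replicate 2 (log2 0.35 and 0.49, adjusted p 0.0539 to 0.0938), and exons of Ulk4 on the opposite strand cover 14.6% of the Ctnnb1 exons. Apc, a scaffold of the complex, was higher by 0.55 ± 0.18 in GSK2830371 kidneys (SE, adjusted p = 0.0197) and 0.49 ± 0.18 in DMSO kidneys (adjusted p = 0.0321). The Apc calls were lost without control replicate 1 in both comparisons, without GSK2830371 replicate 2 in the GSK2830371 comparison, and without control replicate 3 or DMSO replicates 1, 3 or 4 in the DMSO comparison (log2 0.36 to 0.49, adjusted p 0.0514 to 0.119). Gsk3b, the kinase that marks beta-catenin, was called in GSK2830371 kidneys at 0.52 ± 0.17 (SE, adjusted p = 0.0194), and not in DMSO kidneys, at 0.31 ± 0.17 (SE, adjusted p = 0.142). This was lost on leaving out control replicate 1 or 2, or GSK2830371 replicate 1 or 2 (adjusted p 0.0513 to 0.0658). Axin1, the constitutive scaffold, was not called, and passed in GSK2830371 kidneys without DMSO replicate 4 or GSK2830371 replicate 4 (log2 0.42 and 0.51).

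Of the 4 TCF/LEF factors, which carry beta-catenin to DNA, 3 were called lower in both comparisons. Tcf7l1 (ENSMUSG00000055799, chr6:72626378-72789254, minus strand), often a repressor in the absence of beta-catenin, had the smallest p of the 42 genes against control. Tcf7l1 had 599.6, 714, 579.7, 404 and 650.1 normalised reads in the GSK2830371 libraries, 432, 457, 436, 322 and 459 in the DMSO libraries, and 3358, 2499, 1488 and 2658 in the control libraries. The highest i-TERTci value was below the lowest control value by a wide gap. Tcf7l1 differed from control by -2.05 ± 0.22 in GSK2830371 kidneys (SE, adjusted p = 5.69e-06) and -2.52 ± 0.22 in DMSO kidneys (adjusted p = 8.16e-07). Lef1 (ENSMUSG00000027985, chr3:131110471-131224356, plus strand) encodes an activator of beta-catenin targets that is also abundant in T cells, and was at low levels throughout. Lef1 had 27.0, 13.5, 15.8, 21.6 and 30.9 normalised reads in the GSK2830371 libraries, 13.3, 9.17, 16.7, 26.4 and 23.2 in the DMSO libraries, and 109, 122, 88.2 and 127 in the control libraries. No i-TERTci value reached the control range. Its log2 difference was -2.35 ± 0.35 in GSK2830371 kidneys (SE, adjusted p = 9.37e-05) and -2.66 ± 0.35 in DMSO kidneys (adjusted p = 3.04e-05). A gene on the opposite strand covers 13.7% of its exons. Tcf7l2 (ENSMUSG00000024985, chr19:55741820-55933654, plus strand), the main factor of the family in adult intestinal epithelium, varied little among the i-TERTci libraries. Tcf7l2 had 562, 564, 499.8, 449 and 549 normalised reads in the GSK2830371 libraries, 498, 446, 539, 571 and 469.6 in the DMSO libraries, and 1007, 1199, 979.8 and 1476 in the control libraries. Every i-TERTci value was below every control value. Tcf7l2 differed from control by -1.14 ± 0.16 in GSK2830371 kidneys (SE, adjusted p = 4.78e-05) and -1.19 ± 0.16 in DMSO kidneys (adjusted p = 2.86e-05). Tcf7, the T cell factor of the family, averaged 104 ± 36.6 in GSK2830371, 109 ± 38.3 in DMSO and 158 ± 22.4 in control libraries (SD). It was not called, at -0.66 ± 0.32 (SE, adjusted p = 0.103) in GSK2830371 and -0.60 ± 0.32 (SE, adjusted p = 0.134) in DMSO kidneys.

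Lef1 and Tcf7l2 also have a RefSeq window with the motif, at a start downstream of their other RefSeq starts. The first 40 bases transcribed from this start are in no GENCODE transcript, and the same holds for the other RefSeq starts of both genes. These windows are shown because both factors were called lower. The other window with a motif belongs to Fzd7, with CTTTGTT on the opposite strand 130 bases before the start, and Fzd7 was called in no comparison. The Lef1 window is chr3:131156044-131156293, plus strand, with CTTTGTA on the opposite strand 147 bases before the start. The Tcf7l2 window is chr19:55895071-55895320, plus strand, with CTTTGTT on the gene's strand 14 bases before the start.
Lef1: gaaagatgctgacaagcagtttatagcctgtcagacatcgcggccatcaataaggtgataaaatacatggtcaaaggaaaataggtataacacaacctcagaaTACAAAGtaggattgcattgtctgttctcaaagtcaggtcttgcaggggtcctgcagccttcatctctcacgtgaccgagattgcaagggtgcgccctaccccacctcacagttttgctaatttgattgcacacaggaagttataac
Tcf7l2: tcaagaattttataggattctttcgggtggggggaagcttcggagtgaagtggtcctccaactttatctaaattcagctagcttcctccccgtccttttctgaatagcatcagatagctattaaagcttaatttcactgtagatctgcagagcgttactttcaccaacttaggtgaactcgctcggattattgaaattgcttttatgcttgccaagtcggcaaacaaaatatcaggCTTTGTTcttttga

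**Figure D2:**
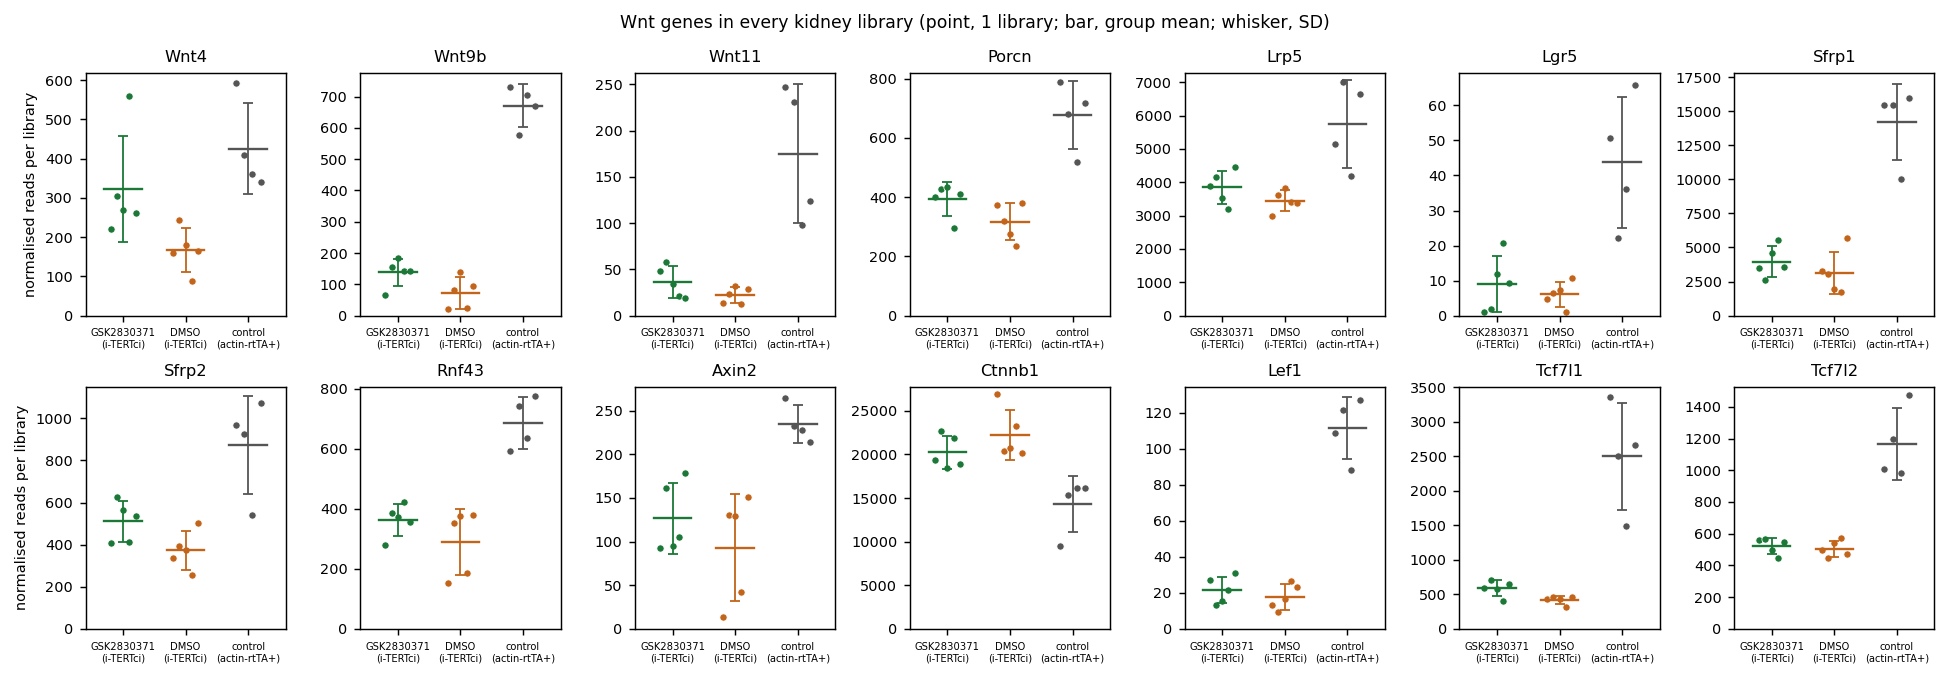
Normalised reads of 14 Wnt genes in each library, with GSK2830371 (n = 5), DMSO (n = 5) and control (n = 4) from left to right on linear axes that start at 0; points are libraries, bars means and whiskers SD. Ctnnb1 lies above the control range in every i-TERTci library. Wnt9b, Wnt11, Porcn, Lgr5, Sfrp1, Rnf43, Axin2, Lef1, Tcf7l1 and Tcf7l2 lie below it in every i-TERTci library. The share of all genes tested that separate in this way was not counted.

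Per length the order of the genes differed between the groups. Levels here are TPM, read counts per exon length scaled to a fixed total. They were computed from the recovered reads and the union of annotated exons, serve to order genes within a group, and were not tested between groups. In GSK2830371 kidneys Ctnnb1 led at 250.4 ± 46.5 TPM, followed by Lgr4 at 119.9 ± 35.3, Wls at 103 ± 7.99, Fzd4 at 85.0 ± 11.9 and Sfrp1 at 58.6 ± 21.2 (SD, n = 5). In DMSO kidneys Ctnnb1 at 252 ± 23.0 was followed by Lgr4 at 82.9 ± 8.54, Wls at 82.9 ± 15.1, Fzd4 at 66.7 ± 29.7 and Sfrp1 at 44.7 ± 29.6 (SD, n = 5). In control kidneys Sfrp1 came first at 124 ± 12.4, then Ctnnb1 at 111 ± 41.9, Fzd4 at 41.9 ± 14.1, Lgr4 at 38.5 ± 17.1 and Wls at 37.9 ± 14.3 (SD, n = 4). Sfrp1 thus stood at place 5 in both i-TERTci groups and first in control, though its control level and that of Ctnnb1 lie within their spread of each other. Place 5 was not resolved either, with Dkk3 at 54.2 ± 20.9 in GSK2830371 and 40.1 ± 20.5 in DMSO kidneys (SD). The neighbours Lgr4, Wls and Fzd4 also lie within their spread in each group. Among the ligands Wnt7b had the highest mean per length in every group, at 9.76 ± 6.26 in GSK2830371, 7.58 ± 3.56 in DMSO and 11.7 ± 2.56 in control kidneys. Wnt5b lay within that spread, at 6.53 ± 3.53 in GSK2830371, 5.73 ± 2.36 in DMSO and 8.84 ± 2.55 in control kidneys. At the low end Lgr5 was last in both i-TERTci groups, at 0.0595 ± 0.0556 and 0.0382 ± 0.0273, and Wnt2b was last in control, at 0.0761 ± 0.0466. On this scale 3 genes called lower had a mean above control, within their spread. Fzd8 was at 8.19 in GSK2830371, 8.02 in DMSO and 7.48 in control kidneys. Lrp5 was at 25.4 in GSK2830371 and 22.8 in control kidneys, and Dkk2 at 14.5 in DMSO and 13.9 in control kidneys. TPM means of the other called genes kept the direction of their calls.

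Other genes of the pathway were taken from 6 lists of 97 symbols, of which 89 were found and 84 tested. In GSK2830371 kidneys 13 of the 84 were called higher than control and 28 lower. In DMSO kidneys 16 were called higher and 33 lower. The shares of all genes tested were 24.3% higher and 22.1% lower in GSK2830371 kidneys, and 25.2% and 23.1% in DMSO kidneys. The median log2 difference of the 84 was -0.21 in GSK2830371 and -0.32 in DMSO kidneys, beside 0.011 and 0.026 for all genes tested. Among the 11 other receptors and agonists tested, 5 were lower and 0 higher in each comparison. Lgr6, the third R-spondin receptor of its kind, was lower, with a log2 difference of -2.76 ± 0.49 in GSK2830371 kidneys (SE, adjusted p = 0.000363) and -4.23 ± 0.49 in DMSO kidneys (adjusted p = 9.57e-06). Ror2, a receptor for Wnt5a, was lower, with a log2 difference of -1.40 ± 0.38 in GSK2830371 kidneys (SE, adjusted p = 0.00714) and -2.23 ± 0.38 in DMSO kidneys (adjusted p = 0.00024). Kremen1, a Dickkopf receptor, and Tspan12, a Norrin co-receptor, had the smallest p among the receptors with a positive difference in DMSO kidneys and were not called, at 0.41 and 0.18 in GSK2830371 and 0.40 and 0.20 in DMSO kidneys. Of 5 further ligands only Wnt8b was called, in DMSO kidneys, at -2.04 ± 0.70 (SE, adjusted p = 0.0249), with -1.38 ± 0.70 (SE, adjusted p = 0.117) in GSK2830371 kidneys. Wnt2, Wnt7a and Wnt10b were at 0.86, 0.49 and 1.73 in GSK2830371 and -0.39, 1.23 and 1.65 in DMSO kidneys, none called.

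Among 16 other inhibitors 2 were higher in each comparison, with 6 lower in GSK2830371 and 7 lower in DMSO kidneys. Beside these counts and those of the transducers, 24.3% of all genes tested were higher and 22.1% lower in GSK2830371 kidneys. In DMSO kidneys these shares were 25.2% and 23.1%. Sostdc1, a secreted antagonist of Wnt and BMP, was lower, with a log2 difference of -2.004 ± 0.31 in GSK2830371 kidneys (SE, adjusted p = 0.000147) and -2.32 ± 0.31 in DMSO kidneys (adjusted p = 4.13e-05). Cxxc5, which binds Dishevelled, was lower, with a log2 difference of -1.21 ± 0.16 in GSK2830371 kidneys (SE, adjusted p = 3.41e-05) and -1.21 ± 0.16 in DMSO kidneys (adjusted p = 3.07e-05). Wif1, a secreted Wnt-binding protein, was higher by 2.12 ± 0.47 in GSK2830371 kidneys (SE, adjusted p = 0.00193) and 2.32 ± 0.47 in DMSO kidneys (adjusted p = 0.000931). Tpbg, a membrane protein that limits canonical signalling, was higher by 1.41 ± 0.23 in GSK2830371 kidneys (SE, adjusted p = 0.000227) and 1.32 ± 0.23 in DMSO kidneys (adjusted p = 0.00034). Of 19 other transducers 5 were higher and 8 lower in each comparison. Csnk1a1, the priming kinase for beta-catenin, and Tnks2, which turns over AXIN, rose in GSK2830371 kidneys by 0.89 and 1.04 and in DMSO kidneys by 0.996 and 1.09 on the log2 scale. Gsk3a, the paralogue of Gsk3b, and Crebbp, a coactivator of beta-catenin, differed by -1.13 and -0.78 in GSK2830371 kidneys and by -1.10 and -0.88 in DMSO kidneys, both called lower.

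Genes known as beta-catenin targets in other tissues were called in both directions. Of 18 tested, 3 were higher and 4 lower in GSK2830371 kidneys, and 6 higher and 5 lower in DMSO kidneys, with medians of -0.21 in GSK2830371 and -0.037 in DMSO kidneys. Among all genes tested 24.3% were called higher and 22.1% lower in GSK2830371 kidneys, and 25.2% and 23.1% in DMSO kidneys, so these shares are mostly near the background. Sp5, a transcription factor and direct target, was lower, with a log2 difference of -1.56 ± 0.24 in GSK2830371 kidneys (SE, adjusted p = 0.000133) and -1.55 ± 0.24 in DMSO kidneys (adjusted p = 0.000125). Snai1, a regulator of epithelial plasticity, was lower, with a log2 difference of -2.06 ± 0.29 in GSK2830371 kidneys (SE, adjusted p = 5.08e-05) and -1.76 ± 0.29 in DMSO kidneys (adjusted p = 0.000157). Cd44, an adhesion receptor, was higher by 1.99 ± 0.37 in GSK2830371 kidneys (SE, adjusted p = 0.000541) and 2.10 ± 0.37 in DMSO kidneys (adjusted p = 0.000327). Mmp7, a secreted protease with a large spread between libraries, averaged 529 ± 635 in GSK2830371, 255 ± 352 in DMSO and 2.25 ± 1.67 in control libraries (SD) and was higher by 6.58 ± 1.10 in GSK2830371 kidneys (SE, adjusted p = 0.000345) and 5.27 ± 1.10 in DMSO kidneys (adjusted p = 0.00152). Of 15 planar cell polarity genes 3 were higher and 5 lower in GSK2830371 kidneys, and 3 higher and 7 lower in DMSO kidneys. Celsr2, a polarity cadherin, was lower, with a log2 difference of -1.25 ± 0.22 in GSK2830371 kidneys (SE, adjusted p = 0.000345) and -1.47 ± 0.22 in DMSO kidneys (adjusted p = 8.20e-05). Fuz, a ciliogenesis effector of the same pathway, was lower, with a log2 difference of -1.99 ± 0.31 in GSK2830371 kidneys (SE, adjusted p = 0.000137) and -2.06 ± 0.31 in DMSO kidneys (adjusted p = 9.37e-05). Daam1, a formin downstream of Dishevelled, was higher by 0.80 ± 0.16 in GSK2830371 kidneys (SE, adjusted p = 0.000768) and 1.01 ± 0.16 in DMSO kidneys (adjusted p = 0.000117). Celsr3, at low counts, was higher by 2.34 ± 0.70 in GSK2830371 kidneys (SE, adjusted p = 0.0131) and 2.95 ± 0.70 in DMSO kidneys (adjusted p = 0.00294).

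The comparison of GSK2830371 with DMSO kidneys sets the inhibitor against its vehicle in i-TERTci mice, and here no gene of the set passed. GSK2830371 replicates 2, 3 and 4 had 49 days on doxycycline and no DMSO library had more than 38, so drug and time cannot be told apart in the full set. Of the 42 genes 35 (83.3%) had a positive log2 difference, with a median of 0.22, beside 48.9% and a median of -0.0063 for all genes tested. Unadjusted, 4 of the 42 had p below 0.05 (9.52%), beside 800 of 18810 (4.25%). By edgeR 0 and by DESeq2 0 of the 42 were called, and by DESeq2 1 gene of all. The count with a positive difference was 33 to 38 when single libraries were left out, and 26, with a median of 0.12, among libraries above the Xist limit only (n = 3 GSK2830371 and 2 DMSO). At 31 days or fewer it was 33, with a median of 0.25 (n = 2 GSK2830371 and 4 DMSO). The genes were measured in the same libraries, so their directions are not independent of each other. Of the 84 other pathway genes described above, 56 (66.7%, median 0.17) were positive in all libraries, and of the 18 target genes among them 6 (33.3%, median -0.13). Positive markers were 9 of 9 for principal cells and collecting duct, 5 of 6 for intercalated cells and 3 of 8 for proximal tubule. The part of cell types in this direction was not tested.

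The 5 smallest p-values among positive differences were those of Wnt4, Wnt9b, Wnt2b, Tcf7l1 and Sfrp2. Wnt4 differed between GSK2830371 and DMSO kidneys by 0.94 (95% interval 0.32 to 1.55, unadjusted p = 0.00517 in limma). Wnt9b differed by 1.20 (0.23 to 2.17, unadjusted p = 0.0181). Wnt2b differed by 0.999 (0.091 to 1.91, unadjusted p = 0.0331). All 3 ligands overlap between the groups: the lowest GSK2830371 value of each lay below the highest DMSO value. Tcf7l1 differed by 0.47 (0.029 to 0.91, unadjusted p = 0.0381) and Sfrp2 by 0.47 (-0.00067 to 0.93, unadjusted p = 0.0503). For all 5 the adjusted p was 0.994. At 31 days or fewer (n = 2 GSK2830371 and 4 DMSO) the differences were 0.38 for Wnt4, 0.46 for Wnt9b, 1.03 for Wnt2b, 0.49 for Tcf7l1 and 0.24 for Sfrp2, none called. On the negative side the smallest p-values were those of Nkd2 at -0.38 (-1.26 to 0.50), Ctnnb1 at -0.13 (-0.49 to 0.23), Fzd1 at -0.12 (-0.59 to 0.36), Fzd2 at -0.074 (-0.64 to 0.50) and Fzd8 at -0.038 (-0.43 to 0.35). At 31 days or fewer Nkd2 was at 0.19 and Fzd2 at -0.44. The intervals show what these groups could resolve: for Tcf7l2 -0.26 to 0.37, and for Axin2 -0.28 to 1.92.

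**Figure D3:**
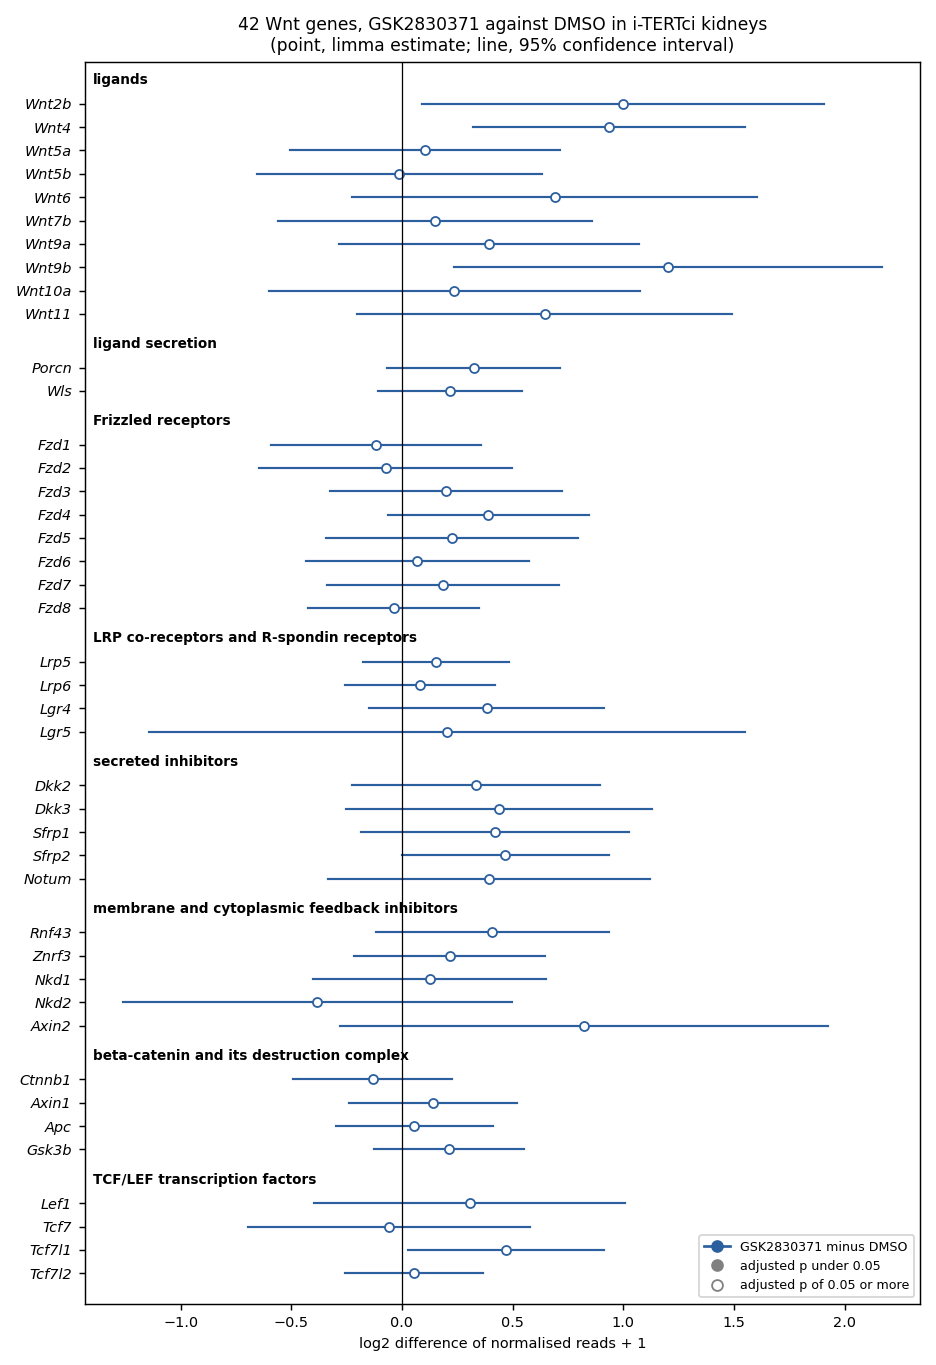
Log2 difference of GSK2830371 (n = 5) from DMSO kidneys (n = 5, at 0) for the 42 Wnt genes by pathway layer, with 95% confidence intervals; open points have an adjusted p of 0.05 or more. All points are open, 35 of 42 lie right of 0, and the intervals of Wnt2b, Wnt4, Wnt9b and Tcf7l1 lie wholly right of 0.

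Whole kidney mixes many cell types, and fewer cells of a type and less RNA per cell cannot be told apart in bulk libraries. Lists of cell-type markers are given beside the genes they bear on. The 9 markers of principal cells and collecting duct, beside Wnt7b, Wnt9b and Wnt11, summed to 31489 to 44649 normalised reads in GSK2830371, 17783 to 45080.2 in DMSO and 55676 to 62962 in control libraries, with no overlap between i-TERTci and control. Sums of the proximal, distal and intercalated lists also did not overlap between i-TERTci and control, while those of the loop of Henle list did. Those of 8 proximal tubule markers were 137967 to 428992 in GSK2830371, 154070 to 475581 in DMSO and 601406 to 976368 in control libraries. Those of 5 distal and connecting tubule markers were 10946 to 37309 in GSK2830371, 10098 to 37606 in DMSO and 64323 to 82761 in control libraries. Those of 6 intercalated cell markers were 5895 to 9619 in GSK2830371, 2195 to 7738 in DMSO and 15785 to 20520.5 in control libraries. Those of 5 loop of Henle markers were 204704 to 475307 in GSK2830371, 239220 to 841599 in DMSO and 165738 to 337186 in control libraries. Of these 5, 1 was called higher and 0 lower in each comparison. Of the 9 collecting duct markers, 6 were lower and 0 higher in each comparison, Aqp2 was not called, and none was at 0. The 9 fibroblast and mural markers, beside Wnt5a and Sfrp1, summed to 38719 to 127119 in GSK2830371, 35373 to 150870 in DMSO and 18954 to 45654 in control libraries, with 2 called higher in GSK2830371 kidneys, 1 in DMSO kidneys and 0 lower in either. The 9 T cell markers, beside Lef1 and Tcf7, summed to 148 to 361 in GSK2830371, 119.7 to 909 in DMSO and 457 to 1188 in control libraries, with 0 higher and 2 lower in GSK2830371 and 0 higher and 3 lower in DMSO kidneys. None of the fibroblast, mural or T cell markers was at 0 throughout a group. The part of these cell types in the Wnt results was not tested. Of 7 neutrophil markers 6 were called higher in each comparison. The 5 adipocyte markers found summed to 15508 in GSK2830371 replicate 4, the library with the highest Wnt4 of its group, and to 1325 to 1744 in the other GSK2830371 libraries. They summed to 915 to 4444 in DMSO and 1417 to 2879 in control libraries. Whether this bears on Wnt4 in that library was not tested.

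**Figure D4:**
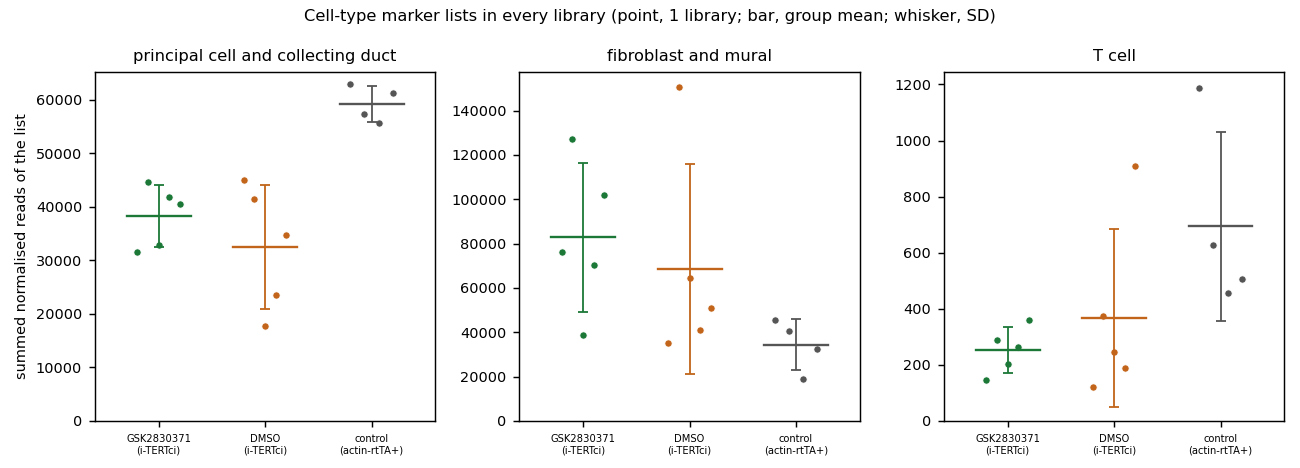
Summed normalised reads of 3 marker lists in each library, with GSK2830371 (n = 5), DMSO (n = 5) and control (n = 4) from left to right; points are libraries, bars means and whiskers SD. The principal cell and collecting duct sums of all i-TERTci libraries, 17783 to 45080.2, lie below the control range of 55676 to 62962. The other 2 lists drawn overlap between the groups. Of the lists not drawn, proximal, distal and intercalated sums also lie below control, and loop of Henle sums overlap with control.

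GC content moved with the calls. The 12 genes higher in GSK2830371 kidneys had a median transcript GC content of 48.8% and the 17 lower ones 54.7%. In DMSO kidneys the medians were 48.8% for the 8 higher and 54.7% for the 20 lower genes, beside 49.7% for all genes tested. When each library was corrected for its trend on GC content and length, an alternative added after seeing the data, 10 of the 42 were higher and 12 lower in GSK2830371 kidneys, and 8 higher and 17 lower in DMSO kidneys. Over all genes tested after this correction, 22.0% were higher and 21.3% lower in GSK2830371 kidneys, and 23.6% and 22.1% in DMSO kidneys. The medians of the 42 moved to -0.20 in GSK2830371 and -0.31 in DMSO kidneys, beside 0.0025 and 0.016 for all genes. Apc, Lrp6 and Wnt7b lost their calls in both comparisons, as did Wnt5b, with -0.69 in GSK2830371 and -0.66 in DMSO kidneys (adjusted p = 0.0948 and 0.109). Porcn, Sfrp2, Rnf43 and Gsk3b lost it in GSK2830371 kidneys only, and Wls and Fzd1 in DMSO kidneys only. Axin1 was called higher in both, by 0.79 and 0.68, and Wnt2b and Fzd5 in DMSO kidneys, by 1.14 and 0.75. Lef1, Lgr5 and Tcf7l2, with GC contents of 46.1%, 44.7% and 47.3%, belong to the second-lowest bin, whose median was 0.19 in GSK2830371 and 0.21 in DMSO kidneys. After correction their differences were -2.49, -2.80 and -1.22 in GSK2830371 kidneys and -2.79, -2.97 and -1.26 in DMSO kidneys, all still called lower. The part of the GC trend in the Wnt results was not otherwise tested.

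**Figure D5:**
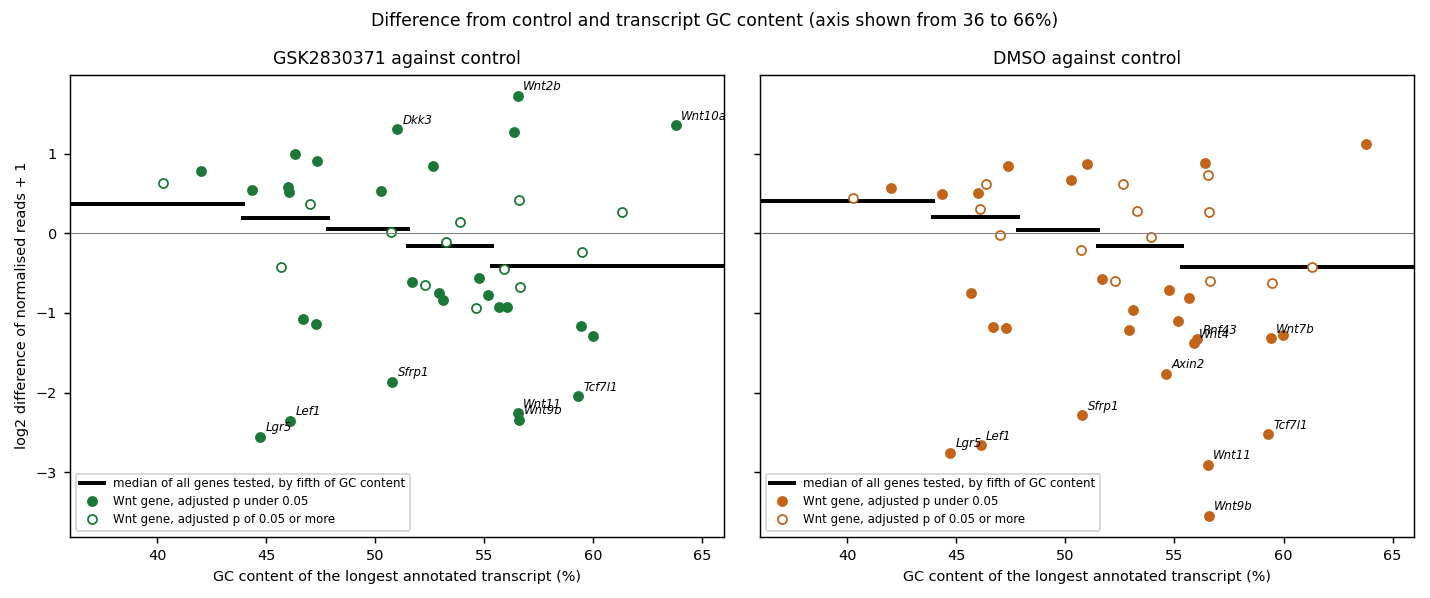
Log2 difference from control of each Wnt gene against the GC content of its longest annotated transcript, for GSK2830371 kidneys on the left and DMSO kidneys on the right; black bars are medians of all genes tested in 5 equal bins of GC content and filled points have an adjusted p below 0.05. The bars step down from 0.36 and 0.41 at low GC to -0.41 and -0.42 at high GC, and Lef1, Lgr5, Tcf7l1, Wnt9b and Wnt11 lie far below them.

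Calls were both lost and gained when libraries were split by Xist class or time on doxycycline. Among libraries above the Xist limit (n = 3 GSK2830371, 2 DMSO and 4 control), 7 of the 29 GSK2830371 calls were lost (Fzd5, Fzd6, Lrp6, Nkd1, Ctnnb1, Apc and Gsk3b) and 3 were gained (Fzd3, Dkk2 and Axin2). Ctnnb1, for example, was at 0.58 there and at 0.53 in all libraries. In the same libraries 11 of the 28 DMSO calls were lost (Wnt5b, Wnt9a, Fzd1, Fzd6, Fzd8, Lrp6, Dkk2, Nkd1, Axin2, Ctnnb1 and Apc) and 0 gained. Wnt9a was at 0.97 there and at 0.88 in all libraries, while Dkk2 was at -0.015 and at -0.75. With Xist class as a covariate Fzd5, Sfrp2, Nkd1, Ctnnb1, Apc and Gsk3b lost their GSK2830371 calls. In that fit Wnt9a, Fzd1, Fzd6, Fzd8, Lrp6, Dkk2, Dkk3, Nkd1, Axin2 and Apc lost their DMSO calls, and Fzd3 was called higher in both comparisons. Among libraries of 31 days or fewer (n = 2 GSK2830371, 4 DMSO and 4 control), Wnt10a, Fzd8, Lrp5 and Ctnnb1 lost their GSK2830371 calls, and Fzd2 and Axin1 gained one. Wnt10a was at 1.38 there and at 1.36 in all libraries. In that set Wnt9a, Lrp6, Dkk2, Axin2 and Apc lost their DMSO calls. In all libraries the DMSO call of Dkk2 was also lost by edgeR, by DESeq2 and with each table alone, that of Wnt10a with each table alone, and that of Dkk3 without the filter on low values. Over all genes, calls above the Xist limit numbered 7676 in GSK2830371 kidneys, against 8716 in all libraries, and 6059 in DMSO kidneys, against 9079. At 31 days or fewer they numbered 7068 and 8468, and with Xist class as a covariate 7595 and 6803. The split sets hold fewer libraries, and a lost call there does not show that a gene did not differ.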

How the data were processed

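Total RNA of whole kidney (RIN above 7, per the labels' protocols) was sequenced in 14 libraries. Per the submitters' processing notes the build was mm10 and the tools included STAR, Trimmomatic, FastQC and DESeq2. How reads were counted, on which annotation and with which strandedness is not given in the sources here. The authors deposited a signal table for each i-TERTci group with the shared controls: every value was a whole read count divided by a library factor (100% whole within 0.001), so reads were recovered, and the controls' reads were the same in both tables. Reads were scaled by median-of-ratios factors, filtered with edgeR's filterByExpr, and tested as log2(normalised reads + 1) with limma 3.58.1 (R 4.3.3; trend and robust; group only, all 14 libraries, Benjamini-Hochberg), checked on simulated data. The 42 genes and all gene lists were chosen with earlier results of these data known. Named genes followed a written rule: per-library values for the genes with the 12 smallest p in DMSO against control plus Ctnnb1, Axin2, Lef1, Wnt4, Wnt9b and Lgr5, the 5 smallest p each way between GSK2830371 and DMSO, and the 2 smallest each way per pathway list. Coordinates are GENCODE M21 (GRCm38). Alternatives were TMM scaling, pseudocounts 0.5 and 5, no filter, edgeR 4.0.16, DESeq2 1.42.0, each table alone, the compared groups alone, Xist class, 31 days or fewer, the replicate block, leaving out each library and, chosen after seeing the data, a correction for GC content and length.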

Additional observations from a re-analysis of the deposited data

Results flagged for a closer look

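In 12 of 126 groups of libraries 1 library stood apart from the others by Dixon's test, where chance gives about 1 in 20. Among GSK2830371 libraries, replicate 5 was high for Wnt2b (45.1 normalised reads, the others 20.3 to 26.8), replicate 4 was high for Wnt4 (559, the others 219.8 to 306), and replicate 2 was high for Wnt9a (414, the others 137 to 213). GSK2830371 replicate 4 was low for Porcn (296, the others 399 to 436) and replicate 1 was low for Fzd7 (991, the others 1201 to 1244). Among DMSO libraries, replicate 1 was low for Fzd7 (447, the others 1183 to 1341) and high for Lgr4 (12137, the others 7130.2 to 8084). DMSO replicate 4 was high for Axin1 (3208, the others 1839 to 2234) and low for Tcf7l1 (322, the others 432 to 459). Among control libraries, replicate 1 was low for Fzd6 (516, the others 684 to 700.4) and for Ctnnb1 (9496, the others 15325 to 16166), and replicate 3 was low for Sfrp1 (10023, the others 15432 to 15926).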

How the results depend on the processing

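Of the calls against control, 14 of 29 in GSK2830371 kidneys and 13 of 28 in DMSO kidneys held under every alternative tried. Higher Wnt genes in DMSO kidneys numbered 4 with Xist class as a covariate, 3 in libraries above the Xist limit and 5 at 31 days or fewer, against 8; higher genes in GSK2830371 kidneys numbered 7 above the Xist limit, against 12. Leaving out single libraries gave 8 to 13 higher and 14 to 19 lower Wnt genes in GSK2830371 kidneys, and 4 to 8 higher and 18 to 20 lower in DMSO kidneys. Over all genes it gave 7173 to 9107 calls (8716 with all libraries) in GSK2830371 kidneys, 7561 to 9146 (9079) in DMSO kidneys and 0 to 0 between them. Between GSK2830371 and DMSO kidneys DESeq2 called 1 gene of all, and the libraries above the Xist limit gave 2. The cause was not tested.

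Under the alternatives tried, no change of direction involved a called gene. Against control in DMSO kidneys, Wnt6 was 0.018 above the Xist limit and 0.24 after GC correction; Fzd4 was 0.027 by edgeR, 0.025 by DESeq2, 0.13 with the Xist covariate, 0.27 above the Xist limit and 0.017 at 31 days or fewer. Fzd7 was 0.043 by edgeR, 0.040 by DESeq2, 0.15 with the Xist covariate, 0.25 above the Xist limit and 0.20 after GC correction. Against control in GSK2830371 kidneys, Wnt6 was -0.065 at 31 days or fewer and Notum 0.35 after GC correction. Znrf3 was -0.031 by edgeR, -0.034 by DESeq2, -0.084 above the Xist limit and -0.027 after GC correction. Nkd2 was 0.072 by edgeR, 0.068 by DESeq2, 0.39 at 31 days or fewer and 0.085 after GC correction. Between GSK2830371 and DMSO this check, also with single libraries left out, covered only the genes with the 5 smallest p each way. Of these, Nkd2 was 0.19 at 31 days or fewer and Ctnnb1 0.047 above the Xist limit. Other genes changed sign too. Above the Xist limit, for example, Axin2 was -0.26, Dkk2 -0.56 and Wnt10a -0.60, against 0.82, 0.33 and 0.24 in all libraries. At 31 days or fewer Lgr5 was -0.80 and Fzd3 -0.26, against 0.20 and 0.20. Over single libraries left out, Wnt6 (-0.0096 to 0.41), Znrf3 (-0.16 to 0.19) and Nkd2 (-0.40 to 0.21) in GSK2830371 against control, Fzd4 (-0.16 to 0.19) and Fzd7 (-0.15 to 0.25) in DMSO against control, and Fzd2 (-0.31 to 0.076) and Fzd8 (-0.17 to 0.050) in GSK2830371 against DMSO changed sign.

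Whether same-numbered libraries pair was not settled. The r of their deviations was -0.0605 to 0.335 over 13 pairs, 4 of them over 0.1, and 6 libraries were closest to their own number. The highest r were 0.335 between the replicates 1 and 0.265 between the replicates 2 of DMSO and GSK2830371. The replicate block gave 13 higher and 18 lower Wnt genes in GSK2830371 kidneys (9248 genes of all), 8 higher and 21 lower in DMSO kidneys (9589 of all), and 0 between them. Under the replicate block Tcf7 was newly called in both, Fzd3 in GSK2830371 kidneys, and Znrf3 was -0.054 in GSK2830371 kidneys. Low counts limit Lgr5, Lef1, Wnt2b and Wnt6.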
